A study of Sus scrofa with 67 samples.

Results

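A group of 91 genes of the pig endometrium was described, out of 25322 genes in the count table. It consisted of genes whose level was low at oestrus, high on day 9 of the cycle and lower again on day 12 in the endometrium, without a comparable difference between days 0 and 9 in the ovary or the oviduct. The members were chosen by measured values, so these values are given only as a description. Reads of a gene were divided by the total of the library to give CPM, the count scaled to an equal library total of 1000000 reads, the replicates of a day were averaged and 1 CPM was added. The ratio of day 9 to day 0 had to be at least 4 in the endometrium and between 0.5 and 2 in both other tissues, and the endometrial level on day 12 had to be under 0.5 times that on day 9. The added 1 CPM draws the ratio of genes with few reads toward 1, so passing as flat does not show an unchanged level there. HPGD averaged 0.24 CPM in the ovary on day 0 and 1.18 CPM on day 9, and its ratio was 1.76. Of 340 genes that reached the ratio of 4 in the endometrium, 187 were flat in both other tissues, and of these 91 met the day 12 limit, 94 stayed at or above it and 2 were left out by the rule. A symbol could be matched to 59 of the 91 members. Each identifier was counted as a gene, though the counts of some ran nearly in parallel. In the endometrial day 6 libraries DGKG had 993, 2259 and 1507 counts and ENSSSCG00000029935 had 1486, 2471 and 1957. SLC4A11 had 1843, 1975 and 1161 counts and ENSSSCG00000025204 had 1498, 1693 and 805. Whether such identifiers are parts of 1 gene was not tested.

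The samples were endometrium, ovary and oviduct (ampulla) of crossbred gilts (Landrace × Yorkshire) aged 6 to 8 months, collected every 3 days of the oestrous cycle from day 0, the onset of oestrus, to day 18. The endometrium was freed of the myometrium, whereas the ovary was taken whole. Messenger RNA was sequenced, and 66 libraries were analysed, 22 per tissue, with 2 to 4 libraries in each group of tissue and day. The files do not tie a library to a labelled animal within its group, so libraries are called by the number in their column. Tissues were taken from 3 gilts on each day per the methods, but the endometrium on day 15 and the ovary and oviduct on days 12 and 15 had 4 libraries each. Some of these may therefore share a gilt, as may libraries of different tissues, and p-values that treat each library as an animal may be too small.

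During the luteal phase, corpora lutea secrete progesterone, and the endometrium answers with epithelial and glandular secretion into the uterine lumen. This fluid carries ions, nutrients, enzymes and proteins to a conceptus before it attaches. If no conceptus is present, prostaglandin F of the endometrium ends luteal function and the animal returns to oestrus. Transport proteins of the epithelium, enzymes of polyamine synthesis and enzymes that make or break down lipid mediators are known parts of this secretory state.

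The library totals lay between 8962103 and 13442083 counts. The tissue labels were checked against marker genes: on day 6, CYP11A1, the side-chain cleavage enzyme of steroid-making cells, averaged 4.52 CPM in the endometrium, 4466 CPM in the ovary and 126 CPM in the oviduct, while FOXJ1, a regulator of cilia, averaged 197, 8.09 and 1333 CPM. Later ovarian libraries differed from those of day 6. Their epithelial markers summed to 23.85 to 35.25 CPM on day 6. On day 15 they summed to 26.09 to 1011 CPM (median 745.2 CPM). On day 18 they summed to 21.65 to 763.3 CPM (median 24.26 CPM). The endometrial day 15 library numbered 2 stood apart from the other 3 of its day. Its summed gland secretion and prostaglandin genes lay within the ranges of days 3, 6 and 12 alike, so its day label is in doubt. Whether the label is right was not tested. The ovarian day 15 library numbered 4 and day 18 library numbered 1 also differed from their groups for some members. Ovarian libraries of day 12 differed in markers. Those of granulosa and luteal cells summed to 271.8 CPM in the lowest library, with a median of 6188 CPM. Those of smooth muscle summed to 2932 CPM in the highest library, with a median of 260.6 CPM. Values of day 15 include the endometrial library unless it is said to be left out, and where a day 15 call changes without it, both are given. Without it 12 further members passed as lower on day 15 than on day 6 and none was lost. Because these are bulk tissues, fewer cells of a type and less RNA per cell cannot be told apart.

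The values nearest to the limits of the rule show how close members came to non-members. The lowest endometrial ratio of day 9 to day 0 among the members was 4.02, for ENSSSCG00000017269, and OASL lay just outside at 3.90. The highest ratio of day 12 to day 9 among the members was 0.498, for ENSSSCG00000027241, against 0.503 for VEPH1 outside. In the ovary the members ranged from 0.514, for ENSSSCG00000029935, to 1.93, for FRMD3, with 0.479 and 2.02 as the nearest values outside. In the oviduct they ranged from 0.501, for RASGEF1A, to 1.98, for UNC13D, with 0.499 and 2.06 outside.

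Together the 91 genes took 0.156% to 0.168% of the counts of the endometrial libraries on day 0 and 0.196% to 0.263% on day 3. Their share was 1.32% to 1.98% on day 6 and 1.47% to 1.93% on day 9. It was 0.329% to 0.523% on day 12, 0.172% to 0.465% on day 15 and 0.178% to 0.218% on day 18. The days 0, 9 and 12 had chosen the members, but days 3, 6, 15 and 18 had not, and on day 6 the share was already in the range of day 9. In the oviduct the share stayed between 0.227% and 0.318% in every library. In the ovary it stayed between 0.124% and 0.261% in 20 of 22 libraries, with 0.607% in the day 15 library numbered 4 and 0.492% in the day 18 library numbered 1.

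**Figure D1:**
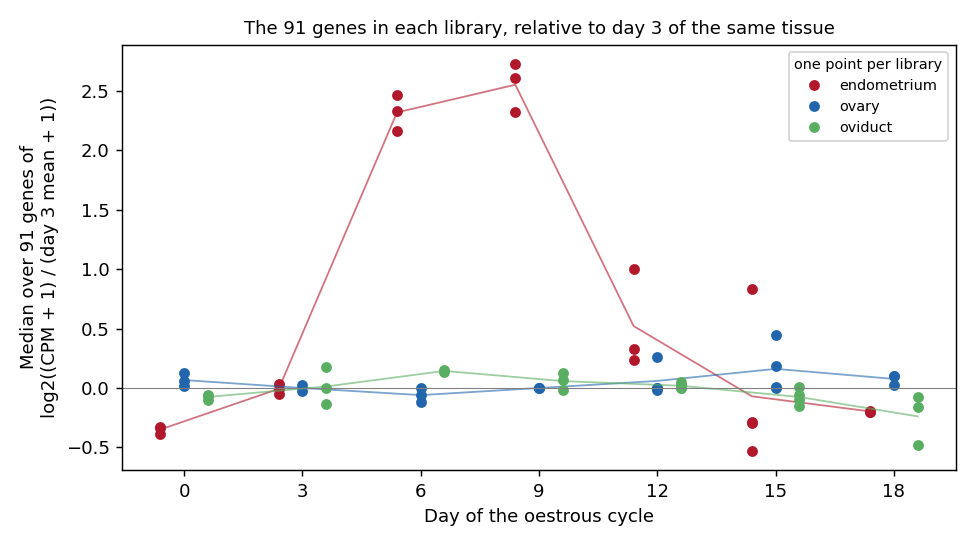
Median over the 91 genes of the log2 ratio of each library to the day 3 mean of the same tissue (CPM + 1), by day of the cycle; a point is a library and a line joins day means. The endometrial libraries of day 6 lie between 2.16 and 2.46 and those of day 18 at −0.20 to −0.19, while a day 15 library lies at 0.83 apart from the other three; ovary and oviduct stay between −0.48 and 0.45.

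The first question was whether the members were already higher on day 6 than on day 3, in libraries that took no part in choosing them. With edgeR's quasi-likelihood test over all 15341 genes tested in the endometrium, 71 of the 91 members rose, which is 78% of them, against 8.86% of all genes tested. No member fell. The median log2 fold change of the members was 2.94, against −0.01 over all genes, and 88 members had a positive value. Every day 6 library lay above every day 3 library for 68 members, against 11.6% of all genes.

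The second question was whether they were lower again late in the cycle. On day 15, 64 members (70.3%) were lower than on day 6, against 13.3% of all genes tested, with a median log2 fold change of −2.21. On day 18, 74 members (81.3%) were lower than on day 6, against 11.7% of all genes, with a median of −3.23. Every day 6 library lay above every day 15 library for 55 members (14.2% of all genes) and above every day 18 library for 75 members (16.3% of all genes). All these comparisons use the same 3 day 6 libraries. Between day 18 and day 3, 6 members (6.59%) differed, all lower on day 18, which is near the 6.73% of all genes that differed in either direction. That count was 0 without the library of day 3 numbered 1 or the library of day 18 numbered 1, 3 without day 3 number 3 and 1 without day 18 number 3.

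**Figure D2:**
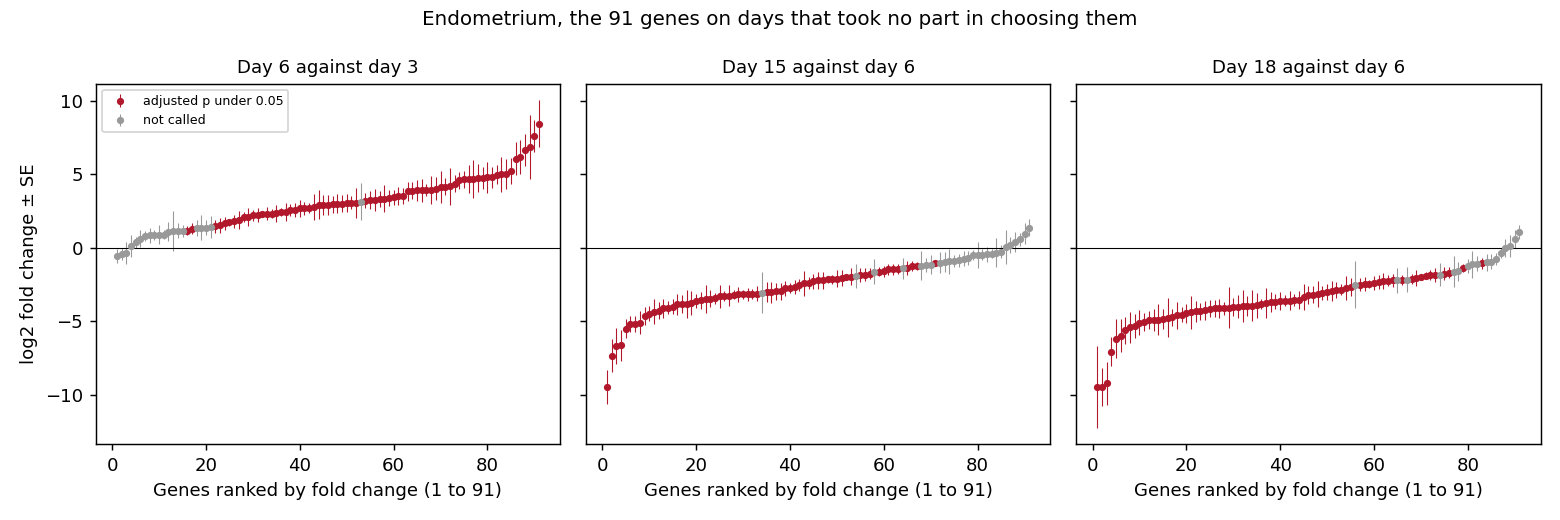
Log2 fold change with its standard error of each of the 91 genes in the endometrium, ranked within each panel, for the change from day 3 to 6 (left), 6 to 15 (middle) and 6 to 18 (right); red points passed an adjusted p of 0.05 and grey points did not. The medians are 2.94, −2.21 and −3.23, and 71, 64 and 74 genes passed in the direction named.

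The member with the highest day 9 level was ODC1, ornithine decarboxylase, the rate-limiting enzyme of polyamine synthesis. Its endometrial levels were 179, 151 and 309.9 CPM on day 3, then 5744, 5349 and 2462 CPM on day 6. On day 9 they were 2443, 3093 and 2247 CPM, and on day 12 they were 373, 669 and 337 CPM. The day 15 libraries held 200.3, 402, 59.4 and 147 CPM and the day 18 libraries 363, 175 and 193 CPM. The day 6 libraries thus stood above all those of days 3, 15 and 18, with no overlap. The log2 fold change was 4.59 ± 0.58 (SE) from day 3 to day 6 (24.1-fold, adjusted p = 0.000112) and −4.31 ± 0.57 from day 6 to day 18 (adjusted p = 0.000171).

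OAT, ornithine aminotransferase, which links ornithine to glutamate and proline, followed the same days. It was at 80.7, 65.2 and 186 CPM on day 3 and at 2505, 3144 and 1779 CPM on day 6. Its levels were 282, 569, 106 and 155 CPM on day 15 and 221, 75.1 and 159 CPM on day 18. None of these overlapped with day 6. OAT rose by 4.67 ± 0.58 on the log2 scale from day 3 to day 6 (adjusted p = 0.000112) and changed by −3.17 ± 0.48 to day 15 (adjusted p = 0.000267). Both carriers of amino acids among the members rose by day 6 as well. SLC3A1, a subunit of a carrier of cystine and basic amino acids, was at 2.49 to 4.13 CPM on day 3 and at 54.6, 111 and 87.1 CPM on day 6 (log2 fold change 4.97 ± 0.67, adjusted p = 0.000165). SLC7A11, the cystine and glutamate exchanger, stayed low throughout, at 0.104 to 0.446 CPM on day 3 and 1.60 to 12.6 CPM on day 6 (4.67 ± 0.95, adjusted p = 0.00245).

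Solute carriers, recognised by their symbol, made up 10 of the 59 members with a symbol (16.9%), against 231 of the 9965 tested genes with a symbol (2.32%). Over the whole family, 33 of the 231 (14.3%) rose from day 3 to day 6. This family was picked after its members had been seen, so the shares are a description. SLC26A4, pendrin, an exchanger of chloride for other anions, was at 2.68, 0.558 and 4.88 CPM on day 3 and 18.5, 244 and 268 CPM on day 6. On day 9 it was at 456, 546 and 631 CPM, on day 12 at 4.92, 16.4 and 0.091 CPM, and on day 18 at 0.427, 0.526 and 0 CPM. One day 6 library thus lay far under the other 2, but still above every day 3 library (log2 fold change 6.19 ± 1.16, adjusted p = 0.00144). The change from day 6 to day 15 was −6.64 ± 1.06 (adjusted p = 0.000347).

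SLC19A2, a thiamine carrier, was at 29.4, 27.5 and 33.7 CPM on day 3 and at 105, 150.0 and 128 CPM on day 6, a log2 fold change of 2.27 ± 0.16 (adjusted p = 3.68e-07). It had fallen by 1.02 ± 0.14 on day 15 (adjusted p = 0.00015) and by 1.99 ± 0.16 on day 18 (adjusted p = 2.65e-06). SLCO1A2, an organic anion carrier, was at 56.9 to 86.7 CPM on day 3 and 349 to 391 CPM on day 6 (2.55 ± 0.46, adjusted p = 0.00104). SLC4A11, of the bicarbonate carrier family, was at 37.0 to 41.4 CPM on day 3 and 104 to 195 CPM on day 6 (2.22 ± 0.36, adjusted p = 0.000568). SLC4A11 was also 1 of the 6 members that were lower on day 18 than on day 3 (−1.33 ± 0.36, adjusted p = 0.0337). SLC29A2, an equilibrative nucleoside carrier, was at 0.727 to 1.25 CPM on day 3 and 15.2 to 17.4 CPM on day 6 (4.13 ± 1.09, adjusted p = 0.0128). The zinc carrier SLC39A12 was nearly silent outside a few libraries, with 0 to 2 counts on day 3 and 119, 1 and 129 counts on day 6. SLC28A3 and SLC6A2 did not pass the test on day 6 and are described with the later members.

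Other channels and pumps differed in timing, with day 9 means of 0.440 times the day 6 mean in GABRP and 2.60 times in CACNA1E. KCNE3, at 3.19 times, is described with the later members. ATP6V0D2, a subunit of the vacuolar proton pump, was at 13.4, 29.7 and 53.7 CPM on day 3 and at 371, 461 and 450.0 CPM on day 6 (log2 fold change 3.92 ± 0.79, adjusted p = 0.00234). GABRP, the pi subunit of the GABA type A receptor, a chloride channel, was at 18.9, 5.35 and 84.4 CPM on day 3 and at 669, 574 and 326 CPM on day 6 (4.03 ± 0.80, adjusted p = 0.00204). Its day 9 levels were lower than those of day 6, at 285, 277 and 128 CPM. TMC5, a member of the TMC family of membrane proteins, rose by 4.78 ± 0.71 (adjusted p = 0.00031). ATP2B4, a calcium pump of the plasma membrane, rose by 1.66 ± 0.43 (adjusted p = 0.0109). CACNA1E, a subunit of a voltage-gated calcium channel, rose by 2.92 ± 0.99 (adjusted p = 0.0466), with 13.8, 19.7 and 80.5 CPM on day 6. The calls of ATP2B4 and CACNA1E each rested on single libraries: ATP2B4 gave 0.81 and did not pass without day 6 number 2, and CACNA1E did not pass when day 6 number 2 or 3 (3.23 and 1.74) or any day 3 library (2.72 to 3.08) was left out.

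Enzymes that act on lipids and signalling nucleotides formed another group among the named members. HPGD, which inactivates prostaglandins, was at 3.57, 3.35 and 11.2 CPM on day 3 and at 55.8, 179 and 205 CPM on day 6. It was at 277, 353 and 289 CPM on day 9, at 57.6, 81.3, 5.31 and 11.4 CPM on day 15 and at 14.3, 0.526 and 1.04 CPM on day 18. It rose by 4.78 ± 1.07 from day 3 to day 6 (adjusted p = 0.00456) and was lower on day 18 than on day 6 (−4.88 ± 1.08, adjusted p = 0.00409). The day 15 libraries overlapped with those of day 6, and that difference did not pass the test (−1.92 ± 0.84, adjusted p = 0.0963). Without the day 15 library numbered 2 it passed (−2.53 ± 0.90, adjusted p = 0.0331). SMPD3, a neutral sphingomyelinase, rose by 3.22 ± 0.48 (adjusted p = 0.000315), and DGKG, a diacylglycerol kinase, rose by 3.03 ± 0.61 (adjusted p = 0.00233). SULT2B1, which sulphates sterols, rose by 3.49 ± 0.61 (adjusted p = 0.000876). ENPP3, an ectoenzyme that splits nucleotides, rose by 2.99 ± 0.64 (adjusted p = 0.00348). PDE5A, which breaks down cyclic GMP, rose by 1.45 ± 0.45 (adjusted p = 0.0303), a call that was lost without day 3 number 2 or 3 (1.46 and 1.21) or day 6 number 1 or 2 (1.22 and 1.17). FAAH, which breaks down anandamide, was at 101, 81.2 and 171 CPM on day 3 and 209, 206 and 159 CPM on day 6, with overlap, and did not pass (0.88 ± 0.34, adjusted p = 0.0823), though it did without day 3 number 3 (1.25). It was nevertheless lower on day 15 than on day 6 (−2.71 ± 0.33, adjusted p = 4.51e-05).

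Both members that act on glucose use rose by day 6. HK2, hexokinase, which phosphorylates glucose, was at 6.17, 8.81 and 14.0 CPM on day 3 and at 186, 226 and 113 CPM on day 6 (log2 fold change 4.37 ± 0.58, adjusted p = 0.000146). TIGAR, a phosphatase that slows glycolysis, was at 24.6 to 26.9 CPM on day 3 and 72.6, 163 and 129 CPM on day 6 (2.43 ± 0.27, adjusted p = 5.83e-05). On day 18 HK2 was at 5.05 to 7.28 CPM and TIGAR at 22.8 to 25.9 CPM, which overlapped with day 3 and not with day 6.

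Among genes of membrane scaffolds, junctions and vesicle traffic, RHOBTB3 was at 40.7 to 47.1 CPM on day 3 and at 493, 762 and 491 CPM on day 6 (log2 fold change 3.90 ± 0.69, adjusted p = 0.000893). MPP7, a scaffold of cell polarity and junctions, rose by 2.71 ± 0.36 (adjusted p = 0.000141). RABEP1, an effector of early endosomes, rose by 2.32 ± 0.45 (adjusted p = 0.00181). CLDN22, a claudin of tight junctions, was at 1.56 to 8.83 CPM on day 3, at 92.8, 41.9 and 18.1 CPM on day 6 and at 0.175 to 0.533 CPM on day 18 (day 18 against day 6 −7.06 ± 0.97, adjusted p = 0.000201). It was also lower on day 18 than on day 3 (−3.78 ± 0.93, adjusted p = 0.0217). All 7 leading members without a symbol rose by day 6. The highest was ENSSSCG00000023361, at 58.3, 62.2 and 169.7 CPM on day 3 and 1169, 1563 and 919 CPM on day 6 (3.84 ± 0.64, adjusted p = 0.000618), and the smallest fold was that of ENSSSCG00000028069 (1.31 ± 0.39, adjusted p = 0.0249). The last gene did not pass without day 3 number 1 or 2 (1.28 and 1.18) or day 6 number 2 (0.77), and ENSSSCG00000026182 did not without day 3 number 1 or 2 (2.06 and 1.90) or day 6 number 3 (1.66).

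Not all members were alike in timing. The highest mean was on day 9 in 59 members and on day 6 in 32. With 1 CPM added to each mean, the day 9 mean was over 2 times the day 6 mean in 30 members. In 3 the day 6 mean was over 2 times that of day 9. These 3 were CLDN22, GABRP and SULT2B1, with ratios of day 9 to day 6 of 0.313, 0.440 and 0.477 without the addition, whereas the ratio was largest in SLC28A3, at 6.39. Without the addition ENSSSCG00000012668, at 8.01 CPM on day 6 and 3.99 CPM on day 9, had a ratio of 0.498. SLC28A3, a concentrative nucleoside carrier, was at 80.1, 121 and 76.4 CPM on day 3, at 38.4, 58.9 and 357 CPM on day 6 and at 1140.2, 549 and 1214 CPM on day 9. Day 6 against day 3 gave 0.90 ± 0.62 (adjusted p = 0.336). Its levels were 259 to 599.5 CPM on day 15 and 151 to 422 CPM on day 18, all above those of day 3. RIGI, a cytosolic sensor of viral RNA, was at 51.9, 43.3 and 48.7 CPM on day 3, 47.2, 31.8 and 150.3 CPM on day 6 and 254, 291 and 259 CPM on day 9 (day 6 against day 3 0.86 ± 0.50, adjusted p = 0.251).

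In both genes the day 6 library numbered 3 stood above the other 2. It was the highest of the 3 for 26 of the 30 members whose day 9 mean was over 2 times that of day 6, and for 10 of the other 61 members, against 37.7% of all genes tested. Without it the day 6 to day 3 value was −0.73 for SLC28A3 and −0.09 for RIGI, and 61 members rose in place of 71. GLB1L2, a protein similar to beta-galactosidase, was another such gene, at 25.6, 53.3 and 253 CPM on day 6 and 19.9 to 26.3 CPM on day 3 (2.46 ± 0.60, adjusted p = 0.0084). Its value was 0.98 without library 3 and then did not pass. KCNE3, an accessory subunit of potassium channels, was at 14.0, 23.8 and 70.6 CPM on day 6 (1.53 ± 0.50, adjusted p = 0.0376). It did not pass without that library (0.60) or without day 3 number 1 or 3 (1.39 and 1.41). In SLC6A2, the noradrenaline carrier, the counts were 12, 14 and 121 on day 6 and 9, 5 and 3 on day 3 (adjusted p = 0.0906). The summed epithelial markers were lowest in this library, at 2149 CPM against 3855 and 4855 CPM in the other 2. Their part in the result was not tested.

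Of the 20 members that did not pass on day 6, 17 had a day 9 mean over 2 times the day 6 mean. UNC13D, which primes secretory vesicles for release, was an exception, at 162 to 183 CPM on day 3 and 325, 307 and 153 CPM on day 6 (0.82 ± 0.33, adjusted p = 0.089), and it passed without day 6 number 3 (1.09). CYFIP2, a component of the WAVE complex of actin, also missed the threshold and was at 32.7 to 45.9 CPM on day 3 and 42.5, 95.7 and 132 CPM on day 6 (1.38 ± 0.49, adjusted p = 0.0555), but passed without day 6 number 1 (1.72). TMEM47 was at 44.7 to 61.7 CPM on day 3 and 28.5 to 76.5 CPM on day 6, with full overlap (0.38 ± 0.37, adjusted p = 0.519). POSTN, periostin, a matrix protein, was at 11.1 to 20.6 CPM on day 3 and 9.10 to 23.9 CPM on day 6 (0.13 ± 0.74, adjusted p = 0.932), with values of −0.07 without day 3 number 1 and −0.36 without day 6 number 1.

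**Figure D3:**
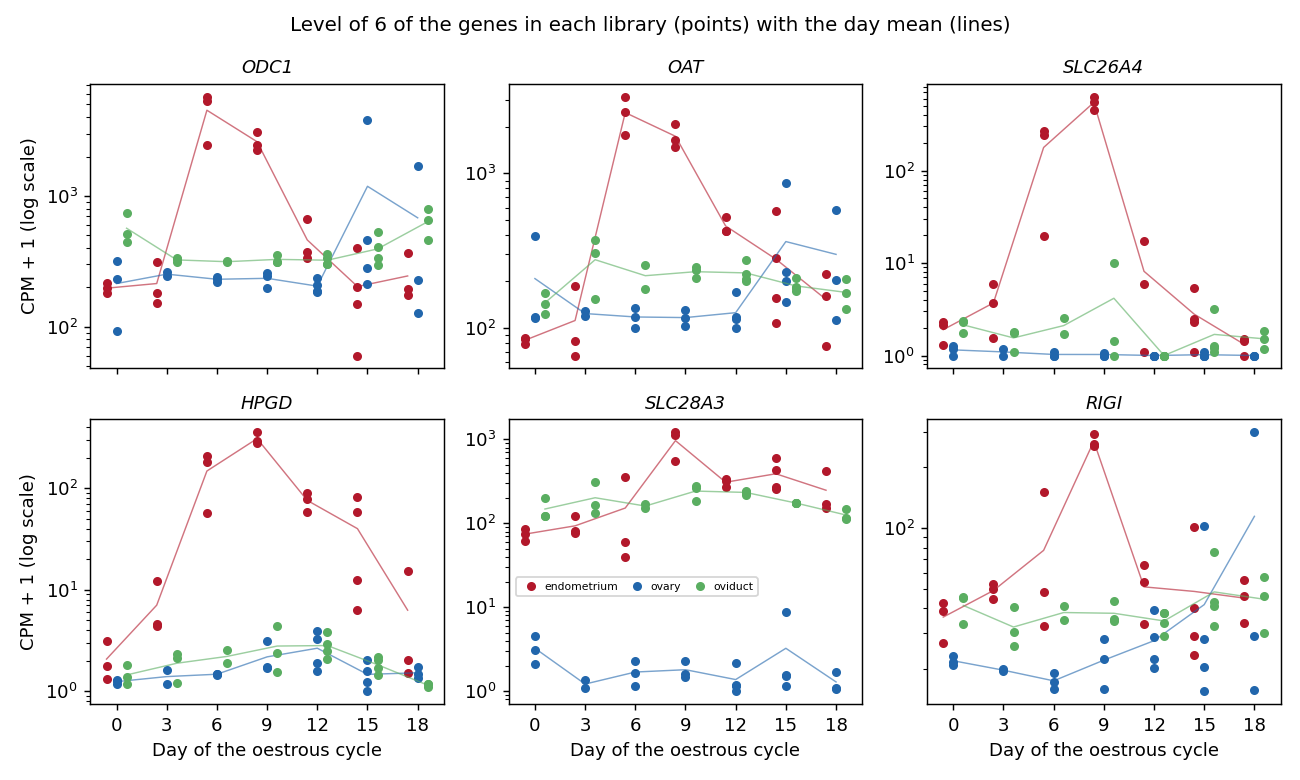
CPM + 1 (log scale) of ODC1, OAT, SLC26A4, HPGD, SLC28A3 and RIGI by day of the cycle in endometrium, ovary and oviduct; a point is a library and a line joins day means. ODC1 and OAT are already high in all 3 endometrial day 6 libraries, SLC28A3 and RIGI in 1 of 3, and ODC1 reaches 3788 CPM in 1 ovarian day 15 library.

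The members known as interferon-responsive genes did not keep one course. IFIT2 was at 25.2, 43.6 and 30.4 CPM on day 3 and at 164, 129 and 118 CPM on day 6, a rise of 2.25 ± 0.47 on the log2 scale (adjusted p = 0.00287). RSAD2, viperin, was at 9.66 to 14.1 CPM on day 3, 3.70 to 13.1 CPM on day 6 and 27.9 to 40.0 CPM on day 9 (day 6 against day 3 −0.53 ± 0.48, adjusted p = 0.487). RIGI had the course given above. In the ovary, all 3 were highest in the day 18 library numbered 1, at 169 CPM for IFIT2, 209.7 CPM for RSAD2 and 297 CPM for RIGI. The other 2 ovarian libraries of that day held 7.19 and 20.9 CPM for IFIT2, 2.52 and 4.53 CPM for RSAD2, and 14.7 and 28.1 CPM for RIGI.

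On day 15 the library numbered 2 was the highest of the 4 for 66 of the 91 members (72.5%), against 39.0% of all genes tested. Its median log2 difference from day 3 over the members was 0.83, against −0.30, −0.29 and −0.53 in the others. RHOBTB3 was at 391 CPM in it and at 36.9, 55.8 and 38.3 CPM in the others. ATP6V0D2 was at 165 CPM against 15.3, 15.7 and 17.6 CPM, and ENSSSCG00000029935 at 152 CPM against 15.7, 18.0 and 11.2 CPM. DGKG, RABEP1 and CYFIP2 were also far above the other 3 libraries, at 106, 128 and 125 CPM. SLC26A4 was low in all 4 but also highest in library 2, at 4.36 CPM against 0.085 to 1.48 CPM. FAAH, GABRP and ENSSSCG00000026182 had their highest value in another library.

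The lists of other genes also set this library apart. Genes of uterine gland secretions (RBP4, SPP1, STC1, FGF9 and LTF) summed to 192.6 CPM in it and to 8066 to 8647 CPM in the other 3, beside 142.5 to 200.3 CPM on day 6. Genes of prostaglandin synthesis, transport and reception summed to 529.5 CPM against 1360 to 1770 CPM, beside 443 to 692.6 CPM on day 6. On day 12 these sums were 46.51 to 1348 CPM and 499.8 to 863.3 CPM. Steroid receptors and coregulators summed to 3175 CPM in it, beside 1761 to 2283 CPM on day 6 and 2432 to 3223 CPM on day 12. The stromal markers summed to 9282 CPM in it, beside 5247 to 6007 CPM on day 6 and 13380 to 15720 CPM on day 12. The smooth muscle markers summed to 244.1 CPM against 389 to 768.4 CPM, and its total of 10773628 counts was within the range of the others. Without this library 76 members were lower on day 15 than on day 6 instead of 64, of 3034 genes instead of 2044.

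**Figure D4:**
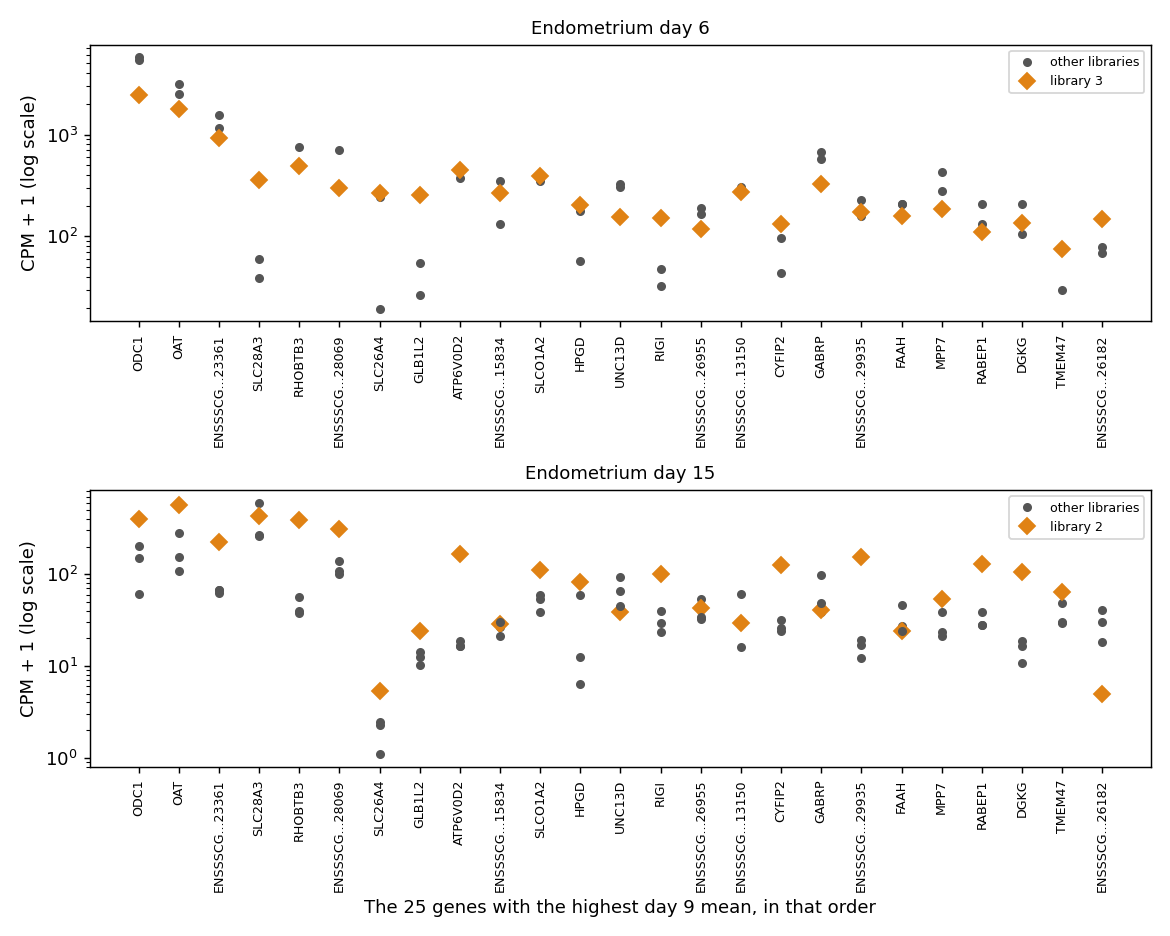
CPM + 1 (log scale) of the 25 members with the highest day 9 mean in each endometrial library of day 6 (upper panel, library 3 as orange diamonds) and day 15 (lower panel, library 2 as orange diamonds); grey points are the other libraries. On day 6 the diamond stands highest for SLC28A3, GLB1L2 and RIGI but lowest for ODC1 and OAT, and on day 15 it stands apart for RHOBTB3, ATP6V0D2, CYFIP2, RABEP1 and DGKG.

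In the other tissues, days that took no part in the choice were compared with day 3. A filter on low counts left 69 of the 91 members to test in the ovary and 80 in the oviduct, and 26 members averaged under 1 CPM in the ovary on every day and 14 in the oviduct. In the ovary, none of the 69 differed on day 6 and none on day 12, against 0% of all 15638 genes tested on both days, so this test had no calls to compare with. At an unadjusted p under 0.05 there were 5 members of 967 genes on day 6 and 5 of 899 on day 12, and DESeq2 called 0 and 1 members of 79 and 71 genes. The day 12 result depended on the ovarian library numbered 1. Without it, 5 genes but no member passed, and 11 members of 2086 genes had an unadjusted p under 0.05. In the oviduct, none of the 80 members differed on day 6, against 0% of all 15665 genes tested, with 8 members of 1199 genes at an unadjusted p under 0.05, and 0 of the 61 genes that DESeq2 called. On day 12 in the oviduct, 5 members (6.25%) differed, all lower, against 3.57% of all genes. Among them were ENSSSCG00000023361 (−1.53 ± 0.26, adjusted p = 0.00499), RHOBTB3 (−1.83 ± 0.41, adjusted p = 0.0254), CACNA1E (−1.93 ± 0.47, adjusted p = 0.0332) and CLDN22 (−2.82 ± 0.76, adjusted p = 0.0461). The count was 1 without day 3 number 1 or day 12 numbers 2, 3 or 4, 2 without day 3 number 3 and 8 without day 3 number 2.

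Whether the change from day 3 to day 6 differed between tissues was tested in one model of all 66 libraries. The change was larger in the endometrium than in the ovary for 21 members (23.1%), against 1.62% of all 16934 genes tested, with a median log2 difference of 2.57. It was larger than in the oviduct for 32 members (35.2%), against 2.53% of all genes, with a median of 2.62. No member had a change that was significantly smaller. All 91 members entered this model, though only 69 had passed the filter within the ovary and 80 within the oviduct. Both comparisons use the same endometrial libraries, and day 3 had 2 libraries in the ovary and day 6 had 2 in the oviduct. Leaving out an ovarian day 3 library gave a median difference from the ovary of 2.33 (number 1 left out) or 2.46 (number 3 left out). Fewer members passed against the ovary in both cases than with all libraries, though a lone library shows no spread of its own. Without one or the other of those oviductal libraries the count against the oviduct was 15 (number 2 left out) or 17 (number 3 left out). For ODC1 the difference was 4.40 ± 1.03 against the ovary (adjusted p = 0.0081) and 4.92 ± 1.11 against the oviduct (adjusted p = 0.00512). ODC1 was at 259.7 and 244 CPM on day 3 and 217 to 240.3 CPM on day 6 in the ovary, and at 310.5 to 334 CPM and 311 and 316 CPM in the oviduct. For OAT the differences were 4.42 ± 0.80 and 5.26 ± 0.86 (adjusted p = 0.000651 and 0.000138). For SLC3A1 they were 5.56 ± 1.05 and 5.13 ± 0.90 (adjusted p = 0.000996 and 0.000291), and for SLC19A2 2.23 ± 0.37 and 1.90 ± 0.38 (adjusted p = 0.000235 and 0.00137).

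Some members with a large endometrial change did not pass these tests. HPGD was at 0.187 and 0.604 CPM on day 3 and 0.455 to 0.488 CPM on day 6 in the ovary, and the difference from the endometrium was 4.26 ± 1.68 (adjusted p = 0.161). Against the oviduct it was 4.70 ± 1.38 (adjusted p = 0.0394). SLC26A4 had at most 0.187 CPM in the ovary on these days, near the level of single reads. In the oviduct it had at most 1.53 CPM, with 1 to 14 reads per library, and differed by 5.56 ± 1.86 from the oviduct (adjusted p = 0.0822). GABRP was at 10.96, 44.1 and 56.5 CPM on day 3 and at 74.9 and 210.9 CPM on day 6 in the oviduct, and its difference was 2.35 ± 1.34 (adjusted p = 0.399). KCNE3 gave 1.23 ± 0.72 against the ovary and 1.34 ± 0.71 against the oviduct (adjusted p = 0.401 and 0.343).

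Levels on day 6 were compared in the same model, which held all 91 members. Only 69 of these had passed the filter within the ovary and 80 within the oviduct. The rest entered through another tissue, so a higher endometrial level of theirs is no separate result. The levels differed between tissues for 83 members against the ovary, 82 of them higher in the endometrium, where 46.7% of all genes tested differed. Of all 16934 genes tested, 4266 were higher in the endometrium than in the ovary and 2028 higher than in the oviduct. Against the oviduct 64 members differed, 63 of them higher in the endometrium, where 27.3% of all genes differed, and 41 differed without the oviductal day 6 library numbered 2. The exceptions were POSTN, which was lower in the endometrium than in the ovary (−4.90 ± 0.89, adjusted p = 1.33e-05), and KCNE3, which was lower than in the oviduct (−2.54 ± 0.52, adjusted p = 0.000221). POSTN was at 452, 317 and 225 CPM in the ovarian day 6 libraries and KCNE3 at 237 and 227 CPM in those of the oviduct. SLC28A3 was nearly absent from the ovary, at 0.152 to 1.30 CPM on day 6, but at 151 and 169 CPM in the oviduct, where its level did not differ from that of the endometrium by the test (0.06 ± 0.69, adjusted p = 0.966). ATP6V0D2 had no read in either oviductal day 6 library and at most 2.06 CPM in those of the ovary.

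Late in the cycle, ODC1 was at 281, 211, 457 and 3788 CPM in the ovarian libraries of day 15 and at 1687, 226 and 127 CPM in those of day 18. OAT was high in the same 2 libraries, at 871 and 582 CPM, and ATP6V0D2 was at 47.3 and 26.0 CPM in them. The other ovarian libraries of these days held 111 to 228 CPM of OAT and 0.467 to 15.4 CPM of ATP6V0D2. Epithelial marker sums also varied widely between the ovarian libraries of these days, and their part in these levels was not tested. No such libraries were seen in the oviduct, where ODC1 reached 792 CPM on day 18.

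Other genes of the same pathways and tissue are given from lists. Of 17 genes of prostaglandin synthesis, transport and reception, 13 had a match, and HPGD was the one that rose from day 3 to day 6, while PTGER3, a receptor of prostaglandin E, fell (−1.79 ± 0.52, adjusted p = 0.0217). The day 15 group was split for this list, with the sum of library 2 within the ranges of both day 6 and day 12. With it, 3 of the 13 were higher on day 15 than on day 6 and none lower: PTGS2, the inducible cyclooxygenase (5.18 ± 1.01, adjusted p = 0.0013), PTGER2, another receptor of prostaglandin E (4.14 ± 0.84, adjusted p = 0.00173), and SLCO2A1, the prostaglandin carrier (2.31 ± 0.50, adjusted p = 0.00264). Without it, 5 were higher, with PTGER4 (0.90 ± 0.32, adjusted p = 0.0312) and PTGIR (1.56 ± 0.60, adjusted p = 0.0458) added, and HPGD and PTGES (−1.06 ± 0.40, adjusted p = 0.0463) were lower. On day 18, 4 were higher and HPGD alone was lower. Of 10 listed steroid receptors and coregulators, 7 were tested. From day 3 to day 6 PGRMC1, a membrane-bound progesterone-binding protein (1.65 ± 0.29, adjusted p = 0.000954), and FOXA2, a regulator of uterine glands (0.86 ± 0.27, adjusted p = 0.0328), rose and NR3C1, the glucocorticoid receptor, fell (−1.04 ± 0.32, adjusted p = 0.0265). PGR, the nuclear progesterone receptor, gave −0.19 ± 0.28 (adjusted p = 0.706) from day 3 to day 6 and was lower on day 15 than on day 6 (−1.32 ± 0.27, adjusted p = 0.00166). NR3C1 and OXTR, the oxytocin receptor, were higher on day 15 than on day 6, and OXTR alone passed on day 18 (4.10 ± 0.94, adjusted p = 0.0052). Without library 2, ESR1, an oestrogen receptor, was also lower on day 15 (−0.997 ± 0.158, adjusted p = 0.00012, against −0.59 ± 0.24, adjusted p = 0.0798, with it). Of the 5 tested genes of gland secretions, none rose by day 6 and LTF fell (−3.65 ± 1.04, adjusted p = 0.0194), and on day 15 RBP4 and STC1 were higher than on day 6 and LTF lower. SPP1 was higher as well without library 2 (2.53 ± 0.78, adjusted p = 0.0167, against 2.19 ± 0.82, adjusted p = 0.0538, with it). On day 18 RBP4 and SPP1 were higher than on day 6.

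Cell type markers were read beside these results. From day 3 to day 6, 1 of 4 epithelial markers rose (KRT8, 1.29 ± 0.32, adjusted p = 0.00875), 1 of 4 stromal markers fell (VIM, −1.39 ± 0.37, adjusted p = 0.0135) and both leukocyte markers tested fell (PTPRC, −1.76 ± 0.38, adjusted p = 0.00338, and CD68, −2.09 ± 0.31, adjusted p = 0.000315). None of 4 smooth muscle markers passed, nor the single markers tested for ciliated epithelium, endothelium and steroid-making cells. On day 15 against day 6, 2 of 4 stromal, 2 of 4 smooth muscle, 1 leukocyte and the endothelial marker were higher, and 1 of 4 epithelial markers was higher and 1 lower. Without library 2 of day 15, 3 stromal, 3 smooth muscle and 2 epithelial markers were higher. On day 18 against day 6, 3 of 4 stromal, 1 of 4 smooth muscle, 1 leukocyte and the endothelial marker were higher, again with 1 epithelial marker in each direction. The median sum of the epithelial markers was 2230 CPM on day 3, 3855 CPM on day 6 and 2304 CPM on day 15, and that of the stromal markers was 10860, 5906 and 11900 CPM. Single markers and libraries differed from these medians. From day 3 to day 6 EPCAM gave 0.01 ± 0.24 and CDH1 −0.38 ± 0.21, while KRT18 gave 0.68 ± 0.28, and none of these passed. EPCAM was the epithelial marker that was higher on day 15 (0.78 ± 0.23) and day 18 (0.87 ± 0.24) than on day 6. Day 6 library 3 had an epithelial sum of 2149 CPM, within the 2139 to 2297 CPM of day 3. On day 9 the median epithelial sum was 2672 CPM. The part of these markers in the result was not tested.

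Among the members that could be placed by symbol as coding genes, none lay directly beside another on a chromosome. SNORA80B, a non-coding RNA, and the members without a symbol were not placed, so neighbours among them were not looked for. In the RefSeq gene order of Sscrofa11.1, which held 55 of the 59 symbols, the closest were SMPD3 and SLC6A2 with 6 coding genes between them, SLC28A3 and FRMD3 with 7, and ODC1 and RSAD2 with 16.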

How the data were processed

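Read counts per gene were deposited by the authors as 1 table of whole numbers over all tissues, with Ensembl gene identifiers and a column per library. Per the study's methods the first 13 bases of each read were trimmed and reads were aligned with TopHat2 to the pig genome Sscrofa 10.2 with Ensembl annotation. FeatureCounts is named among the tools of the submitters' processing notes, without settings. The library kit is called stranded in the labels and the strand setting of the counting is not given in the sources used here, so reads of overlapping or antisense genes cannot be told apart. Columns were matched to groups of tissue and day by their names and not to single samples, since columns are numbered from 1, samples from 0. Endometrium of day 12 had 3 columns for 4 labelled samples, and 1 sample was not analysed here. The methods say that tissues came from the same gilts, but nothing in the files says which libraries share a gilt, and each library was treated as independent.

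Symbols were paired with 11804 of the 25322 identifiers. The members and the gene lists were chosen with earlier results of these data known. Genes were named by a rule: the 25 members with the highest mean CPM in the endometrium on day 9. Further members were named for a role or a pattern after their values had been seen. Lists of cell type markers, prostaglandin genes, steroid receptors and coregulators, and gland secretions were read beside the members. CPM are not scaled by gene length, so levels are not compared between genes.

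Counts were normalised by TMM and fitted with edgeR 4.0.16 (glmQLFit with robust estimation, quasi-likelihood F test) in R 4.3.3 after filterByExpr, with day as a factor over the 22 libraries of a tissue, or tissue and day over all 66. Adjusted p-values are Benjamini-Hochberg values over all genes tested, two-sided, with a threshold of 0.05. The error printed after ± is the size of the fold change on the log2 scale over the root of its F value. Library totals of 8962103 to 13442083 put the value of 3 counts at 0.223 to 0.335 CPM, a floor that covers counting error only. Of 74 pairs of replicates none was identical. The p-values measure the spread between libraries of a day. Alternatives were other size factors, no filter, DESeq2 1.42.0, the replicate number as a block, the compared groups alone, and each library left out. No sequence is shown.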

Additional observations from a re-analysis of the deposited data

Results flagged for a closer look

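In groups of 4 libraries the gap of the most distant library to its nearest neighbour was set against the whole range of the group. This was done 30 times, and 9 had a library apart. The comparisons repeat the same few groups of libraries for different genes, so they are not independent. All flags but that of the ovary come from the same 4 endometrial libraries of day 15. The 9 can therefore not be set against the 1 in 20 that chance would single out in independent groups. In the endometrium on day 15 the gap took 0.970 of the range for ENSSSCG00000023361, 0.947 for RHOBTB3, 0.985 for ATP6V0D2, 0.930 for CYFIP2, 0.952 for ENSSSCG00000029935, 0.894 for RABEP1 and 0.918 for DGKG. In all of these the distant library was the one numbered 2. For FAAH it was 0.855, and there library 4 lay above the others. In the ovary on day 12, the median of the members' log2 ratios to day 3 had a gap of 0.931 of its range. Without library 2 of the endometrium, 76 members instead of 64 were lower on day 15 than on day 6.

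The change from day 3 to day 6 differed between tissues in a test of the difference itself. Against the ovary it did so for 21 members. Among the leading ones the log2 difference was 4.40 for ODC1, 4.42 for OAT, 3.99 for ENSSSCG00000023361, 3.87 for RHOBTB3, 2.93 for ENSSSCG00000015834 and 4.08 for SLCO1A2. It was 3.31 for ENSSSCG00000029935, 2.87 for MPP7 and 2.34 for RABEP1. Against the oviduct it did so for 32 members. The difference was 4.92 for ODC1, 5.26 for OAT, 4.27 for ENSSSCG00000023361, 4.55 for RHOBTB3, 1.76 for ENSSSCG00000028069 and 3.99 for ENSSSCG00000015834. It was 4.70 for HPGD, 1.74 for ENSSSCG00000026955, 3.46 for ENSSSCG00000029935, 2.37 for MPP7, 2.24 for RABEP1 and 3.26 for DGKG.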

How the results depend on the processing

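The 164 alternatives cover the counts of members called and the number of members chosen by the rule. In 147 of them the number stayed within 1.5 times of the value given. All alternatives for the number chosen were among the 147, as were comparisons where no member was called with or without the change. The other 17 were counts of members called, in the comparisons of day 18 with day 3, of the oviduct and of ovary day 12. With DESeq2, 14 members differed between days 18 and 3 in the endometrium (of 1772 genes instead of 1033), 9 between days 12 and 3 in the oviduct (of 1242 instead of 559) and 1 in the ovary. With the compared groups alone, 3 members differed between days 12 and 3 in the oviduct, and on day 15 in the endometrium 45 members were lower than on day 6, of 989 genes instead of 2044. That setting gave 31 members of 574 genes (instead of 274) against the ovary and 43 of 755 (instead of 429) against the oviduct for the change from day 3 to 6, and 59 genes but no member in the ovary on day 6. DESeq2 called 79 genes there, 71 in the ovary on day 12 and 61 in the oviduct on day 6, where edgeR called 0. The cause was not tested. Leaving out 1 library at a time gave 60 to 72 members for the rise to day 6, 57 to 76 (76 without day 15 number 2) for day 15, 64 to 76 for day 18 against day 6, and 0 to 8 for day 18 against day 3. It gave 1 to 8 for oviduct day 12, 15 to 34 for the difference from the oviduct and 41 to 63 for the levels against the oviduct. For the difference from the ovary it gave 17 to 19 where each group kept at least 2 libraries, against 21 with all. Where this left 1 library of ovary day 3, the number against the ovary was lower than this range. Where it left 1 library of ovary day 3 or oviduct day 6, the lone library is assumed to vary like the other groups.

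Of 46 named genes, 30 kept direction and side of the threshold for day 6 against day 3 in all settings that gave a value. Signs turned in SLC28A3 (−0.73 to 1.36 over libraries left out), RIGI (−0.0907 to 1.23) and POSTN (−0.36 to 0.39), none of which had passed. The choice itself gave 81 to 104 members over libraries left out, 82 (73 shared) with 0.5 CPM added and 103 (84 shared) with TMM-scaled CPM. With the replicate number as a block (replicate block) 67 members rose to day 6, 62 were lower on day 15, 73 on day 18, 8 differed between days 18 and 3 and 4 in the oviduct on day 12 (of 281 genes instead of 559). A block of day and number gave 18 and 35 members for the differences between tissues. Whether numbers mark a gilt is not stated. Libraries of the same day and number in 2 tissues had deviations correlated at −0.132 to 0.387 (median 0.127), over 0.1 in 43 of 63 pairs, against 14 of 63, 19 of 58 and 14 of 58 pairs of the same number on other days of a tissue (medians −0.0165, −0.0117 and −0.0141). Not every pair was over 0.1, but this cannot show that the numbers are unrelated to gilts. The median of these correlations was higher than those between days. The main tests between tissues nevertheless treated libraries as independent, so a shared gilt is ignored in them. Members under 0.335 CPM in the ovary or oviduct could not be compared there at this depth.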
